A study of Mus musculus with 15 samples.

Results

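Neo-liver, the ectopic liver tissue that grew under the kidney capsule after hepatocyte transplantation, was compared with the injured liver of the mice that carried it. The comparison took the 4 arrays titled Neo-liver and the 4 arrays titled Host liver, 8 of the 15 arrays of the series. The main fit compared group means without pairing. The number in the title paired arrays in an alternative fit, in an exact test and in differences by pair. All recipients were female wild-type FVB/N mice that had received 2 intraperitoneal doses of the liver toxin monocrotaline (MCT, 70 mg/kg) at an interval of 2 weeks from an age of 7 to 9 weeks. They were then given 1000000 hepatocytes from FVB/N-hA1AT Tg donors aged 8 to 20 weeks, whose cells carry a human α1-antitrypsin transgene. Neo-liver was microdissected from the kidneys at 250 to 300 days, when the mice were 48 to 55 weeks old, and host liver was taken from the MCT-treated recipients. The 4 host kidney arrays of these mice served to mark genes that kidney RNA could carry into neo-liver, and the livers of 3 untreated FVB/N females aged 20 weeks are given beside some values as the level in normal liver. What limits neo-liver as a model is that the transplanted cells were hepatocytes, that the tissue lay inside kidney, and that the labels give no array of a liver without MCT at the same age.

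Liver is built from hepatocytes, which make up most of its RNA, and from sinusoidal endothelial cells, Kupffer cells, stellate cells and bile duct cells. Hepatocytes divide their work along the blood stream: those near the portal vein make urea and glucose and break down amino acids, and those near the central vein, which receive Wnt signals from its endothelium, make glutamine and hold much of the drug metabolism. Monocrotaline is turned into a reactive pyrrole by hepatocyte P450 enzymes and damages sinusoidal endothelium as well as hepatocytes. Levels below are log2 levels, the log2 signal of a gene's probe minus the 75th percentile of its array, so a level of 0 equals that percentile, and they are compared between arrays for the same gene only. Differences are log2 differences of neo-liver minus host liver, 4 against 4 arrays, with their standard error (SE). The SE comes from limma's fit to all 15 arrays, so the spread within host kidney and control liver enters it. For Cyp2e1 the SE was 0.28, while the standard deviation (SD) was 0.10 in neo-liver and 0.13 in host liver. Rose or fell is written of an adjusted p under 0.05 in limma's test over 15622 genes.

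Of these 15622 genes, 2670 were higher in neo-liver (17.1%) and 4921 lower (31.5%), together 48.6%. Differences of at least 2-fold ran mostly upwards, with 1714 genes (11%) higher and 637 (4.08%) lower. Those counts were 1672 and 349 after quantile normalization, 1543 and 963 with each array centred on its median, 1733 and 1233 with no filter on dim probes, and 977 and 140 with normexp background correction. The arrays of the groups did not overlap for 2078 of the higher genes (13.3% of all genes) and 3433 of the lower (22.0%). The median difference over all genes was -0.21, and it was -0.07 after quantile normalization, -0.33 with each array centred on its median and -0.30 after the kidney share was subtracted, so small differences are read against those medians. Quantile normalization turned the split into 2688 higher and 2598 lower genes, 50.9% of the calls higher in place of 35.2%. All 4 neo-liver arrays lay on a slide that held no host liver array, so what the slides add to the difference cannot be told apart from the groups. The labels do not say which samples shared an animal, and same-numbered neo-liver and host liver arrays deviated together, and the number was used as a replicate block in an alternative fit.

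Kidney RNA was present in all 4 neo-liver samples. Over 60 markers of kidney tubule and glomerulus, the neo-liver arrays read 18.5%, 41.6%, 20.8% and 29.8% of the host kidney signal in the order of their numbers, a mean of 27.7% ± 10.5 (SD, n = 4), and the host liver arrays 0.0090% to 0.030%. Every neo-liver array lay above every host liver array (p = 0.125 by a two-sided exact test over the 16 possible sign changes within numbers, the lowest value it can reach). A share of that size would lower a gene that kidney lacks by -0.30 to -0.78 on the log2 scale, depending on the array, with a mean of -0.48. In bulk tissue of this kind, fewer cells of a type and less RNA per cell cannot be told apart.

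The genes that rose most were kidney genes. Dao, for D-amino acid oxidase, was at least 485-fold higher, Cubn, for the tubular uptake receptor cubilin, at least 389-fold and Kcnj1, for the potassium channel of the thick ascending limb, at least 190-fold, since none of them was well above background on any host liver array. Umod, for the uromodulin of the same segment, stood at 5.83, 5.73, 4.56 and 6.22 in neo-liver 1 to 4 and at -5.55, -3.48, -3.23 and -4.55 in host liver 1 to 4, where 2 arrays read it above background. Its difference was 9.79 ± 0.48 (adjusted p = 3.60e-09), and Cdh16, for kidney cadherin, rose by 10.05 ± 0.46, Lrp2, for the tubular receptor megalin, by 9.72 ± 0.58, and Slc5a2, for the glucose transporter SGLT2, by 9.40 ± 0.38. Cdh16 and Lrp2 were above background on 2 host liver arrays and Slc5a2 on 1, so the sizes of these differences rest in part on host liver values at background. Of the proximal tubule list 26 of 30 tested members rose and 1 fell (median 6.48), of 29 members of the list for later segments (loop of Henle to collecting duct) 27 rose (median 5.02), 17 of the list rising and 4 falling after subtraction, and of the podocyte and mesangium list 12 of 15 rose (median 1.65). Their summed signals were 522 to 1460, 125 to 255 and 26.2 to 34.5 in neo-liver against 74.8 to 135, 8.07 to 14.7 and 10.8 to 16.9 in host liver, in multiples of the 75th percentile. Of the glomerular genes, Wt1, for a transcription factor of podocytes, rose by 4.17 ± 0.56. Of the 22 tested transcription factors of kidney development 18 rose, with Hoxd8 at least 33.2-fold and Pax8 at least 17.9-fold higher. The fall of Pax2 by 4.13 ± 0.87 went the other way: its probe read -3.54 in host kidney, where the gene is known to be active, and 6.41 in control liver, and both of its kept probes behaved alike.

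**Figure D1:**
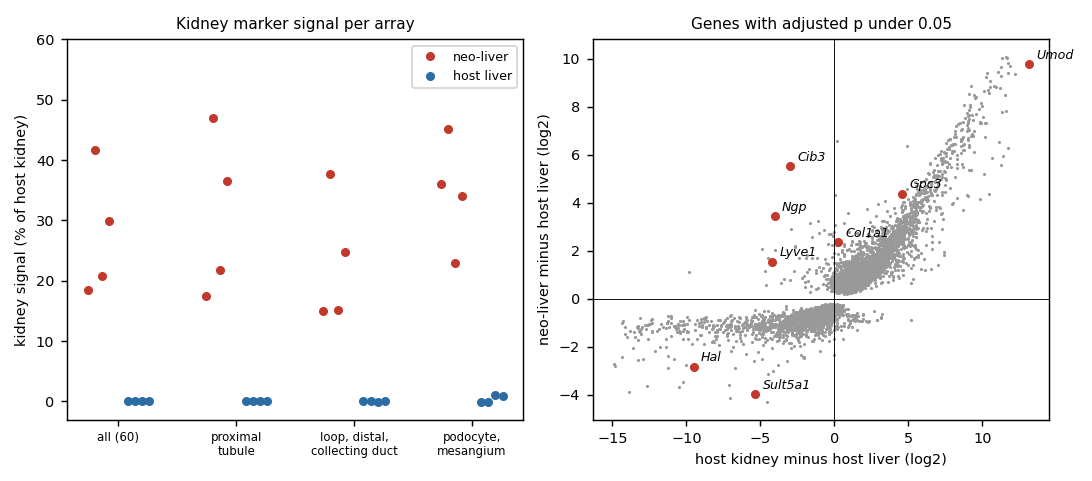
Left, kidney marker signal of each neo-liver (red) and host liver (blue) array as a percentage of the host kidney signal, for all 60 markers and for the markers of tubule segments and glomerulus. The neo-liver arrays read 18.5% to 41.6% over all markers and the host liver arrays at most 0.030%. Right, the log2 difference of each called gene between neo-liver and host liver (vertical) against the difference between host kidney and host liver (horizontal). Most genes that rose lie to the right of 0, and Ngp, Cib3 and Lyve1 rose to its left.

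Each called gene was therefore marked by its level in host kidney. Of the 2670 higher genes, 2240 were higher still in host kidney than in neo-liver, 329 lay in between, and 101, of which 48 differed at least 2-fold, were no higher in host kidney than in host liver. Of the 4921 lower genes, 3249 were lower still in host kidney, 1354 lay in between and 318 were not lower in host kidney than in host liver. The kidney share was also subtracted from each neo-liver array. A signal left below the lowest one above background on that array was set to that lowest signal, here called the floor. Differences and counts after subtraction can rest on the floor. After subtraction 1594 genes were higher and 4486 lower, and 1215 and 3495 of those were also called without subtraction. Gene groups are therefore given with their count after quantile normalization or after subtraction where it moved a count of 5 or more by over 1.5 times, and with the replicate block likewise. Counts of members in the main fit are to be read against the 17.1% of all genes that rose and the 31.5% that fell. A count under an alternative is to be read against that alternative's own totals of the 15622 genes. These were 2688 higher and 2598 lower after quantile normalization, 1594 and 4486 after subtraction, and 2930 and 6253 with the replicate block.

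**Figure D2:**
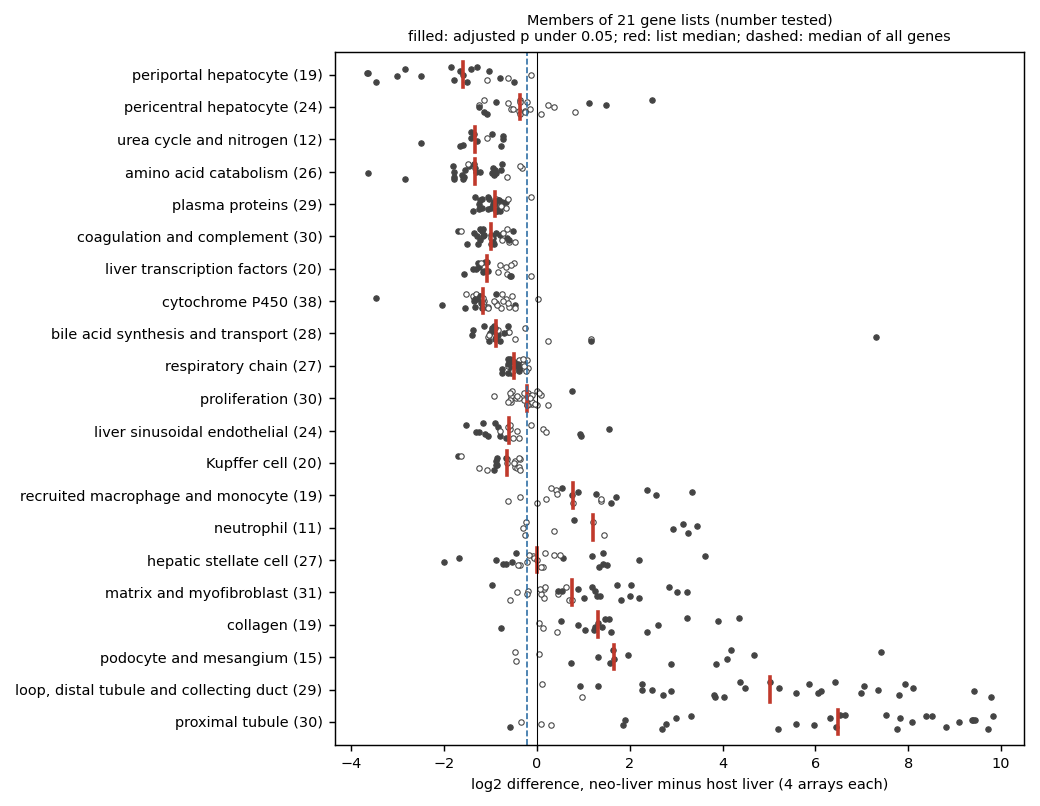
Log2 differences of neo-liver minus host liver (horizontal) for the tested members of 21 gene lists, with the number tested in brackets. Filled points passed adjusted p under 0.05, red bars are list medians and the dashed line is the median of all genes at -0.21. Hepatocyte lists lie left of it, with the periportal list farthest at -1.60, and stroma and kidney lists lie to its right.

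Genes of neutrophil granules stood out among the genes that were no higher in host kidney than in host liver. Among such genes whose groups did not overlap, the 10 largest rises, with predicted genes and immunoglobulin segments left aside, were Cib3, Ngp, Mpo, Camp, Slpi, Cebpe, Itgbl1, Fkbp11, Chil3 and Stk33. The promoters of 3 granule genes are shown here because all 3 transcripts rose, beside those of Hal and Cyp2f2, which fell. They run from 250 bases before to 50 bases after the start of the gene in RefSeq on GRCm38.p6: Ngp chr9:110419558-110419857 (plus strand), Ltf chr9:111019042-111019341 (plus strand), Camp chr9:109849407-109849706 (minus strand), Hal chr10:93488518-93488817 (plus strand) and Cyp2f2 chr7:27119705-27120004 (plus strand). Capitals mark the letters TTGCNNAA on either strand (read as TTNNGCAA on the other), a core of the sites of C/EBP factors, the family to which the granulocyte factor C/EBPε belongs.
Ngp: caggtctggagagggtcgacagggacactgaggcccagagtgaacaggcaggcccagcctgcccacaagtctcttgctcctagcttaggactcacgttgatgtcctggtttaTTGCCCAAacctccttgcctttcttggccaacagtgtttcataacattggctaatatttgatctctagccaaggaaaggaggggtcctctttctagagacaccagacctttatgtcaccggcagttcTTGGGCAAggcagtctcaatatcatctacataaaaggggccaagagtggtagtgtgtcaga
Ltf: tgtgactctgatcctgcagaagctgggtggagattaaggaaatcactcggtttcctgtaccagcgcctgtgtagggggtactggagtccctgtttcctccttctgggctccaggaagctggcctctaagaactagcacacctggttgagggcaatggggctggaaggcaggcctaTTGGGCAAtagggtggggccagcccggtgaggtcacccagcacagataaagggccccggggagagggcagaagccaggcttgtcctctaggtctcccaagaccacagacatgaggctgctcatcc
Camp: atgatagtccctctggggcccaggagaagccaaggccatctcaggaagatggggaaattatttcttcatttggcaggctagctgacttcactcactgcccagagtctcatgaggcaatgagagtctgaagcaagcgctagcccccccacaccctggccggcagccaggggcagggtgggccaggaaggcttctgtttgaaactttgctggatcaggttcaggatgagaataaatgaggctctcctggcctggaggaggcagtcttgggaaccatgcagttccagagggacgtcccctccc
Hal: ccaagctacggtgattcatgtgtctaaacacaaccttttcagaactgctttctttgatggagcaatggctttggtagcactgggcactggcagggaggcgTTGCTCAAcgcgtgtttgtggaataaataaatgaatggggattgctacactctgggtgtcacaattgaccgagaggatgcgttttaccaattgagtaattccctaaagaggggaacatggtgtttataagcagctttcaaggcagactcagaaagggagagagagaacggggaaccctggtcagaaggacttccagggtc
Cyp2f2: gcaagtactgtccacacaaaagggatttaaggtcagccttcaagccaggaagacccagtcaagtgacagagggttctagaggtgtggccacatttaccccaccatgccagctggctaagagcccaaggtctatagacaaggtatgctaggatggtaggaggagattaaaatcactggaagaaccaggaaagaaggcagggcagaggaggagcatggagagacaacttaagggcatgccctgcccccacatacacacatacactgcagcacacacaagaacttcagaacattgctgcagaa

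The letters occurred in 7 of 15 promoter entries of the neutrophil list (46.7%), which cover 14 of its genes, in 1 of 15 entries of the periportal list (6.67%), which cover 11 genes, and in 10.8% of all 32851 promoters of the table. Ngp held 2 matches, Ltf 1, Hal 1, and Camp and Cyp2f2 none in this window. The share of the neutrophil list covers its genes whether or not they rose, and Mpo, which rose, held no match. A link between the matches and the rises was not tested.

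Several neutrophil granule genes rose, each of them in all 4 pairs of equal number. Ngp, for neutrophilic granule protein, stood at 3.67, -0.52, -0.02 and 1.03 in neo-liver 1 to 4 and at -0.72, -4.42, -2.50 and -2.01 in host liver 1 to 4, and at -6.46 in host kidney. Camp, for the antimicrobial peptide cathelicidin, stood at 5.44, 1.53, 1.95 and 2.83 against 0.92, -0.95, 0.07 and 0.03. Array 1 was the highest and array 2 the lowest of its group for both genes in both tissues, and the groups did not overlap. Ngp rose by 3.45 ± 0.87 (11-fold, adjusted p = 0.00568), Ltf, for lactoferrin, by 3.26 ± 0.89, Mpo, for myeloperoxidase, by 3.15 ± 0.88 and Camp by 2.92 ± 0.65. Cebpe, the gene of C/EBPε itself, which drives the formation of secondary granules, rose by 2.74 ± 0.79, from a level above background on 2 host liver arrays. Chil3, for a chitinase-like protein of myeloid cells, rose by 2.58 ± 0.67. Of 11 tested members of the neutrophil list 5 rose and none fell, with a median of 1.21, and 17.1% of all genes rose. S100a8, for a cytosolic protein of mature neutrophils and monocytes, differed by 1.45 ± 1.04 (adjusted p = 0.264), with 6.72, 2.32, 3.56 and 4.50 in neo-liver against 4.87, 0.71, 2.45 and 3.26 in host liver. It was higher in neo-liver in all 4 pairs and passed the test only with the number as a replicate block (adjusted p = 0.00254).

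The remaining 5 of these 10 genes, Cib3, Slpi, Fkbp11, Itgbl1 and Stk33, are on none of the gene lists. Cib3, for a calcium- and integrin-binding protein, stood at 2.80, 1.79, 2.27 and -0.80 in neo-liver and at -5.56, -3.36, -3.42 and -3.70 in host liver, where 2 arrays read it above background. It rose by 5.53 ± 0.66 (adjusted p = 2.32e-05) and was not above background on any host kidney array. Slpi, for a secreted inhibitor of neutrophil elastase, rose by 2.87 ± 0.58, with 4.81, 4.26, 6.54 and 5.76 against 1.90, 1.47, 3.03 and 3.50. Its level was -0.94 in control liver. Fkbp11, for a prolyl isomerase of the secretory pathway, rose by 2.60 ± 0.29, Itgbl1, for an integrin-beta-like matrix protein, by 2.72 ± 0.60 and Stk33, a kinase gene, by 2.31 ± 0.56, the last 2 from levels above background on 2 host liver arrays.

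Periportal hepatocyte genes fell as a group. Hal, for the histidine ammonia lyase of periportal hepatocytes, stood at 3.39, 3.92, 3.75 and 3.57 in neo-liver 1 to 4 and at 6.74, 7.23, 6.52 and 5.45 in host liver 1 to 4. Sds, for serine dehydratase, stood at 3.10, 1.97, 1.94 and 0.60 against 6.32, 6.41, 5.49 and 3.99, and Cyp2f2, a P450 gene of periportal hepatocytes, at 4.37, 5.15, 4.98 and 3.56 against 7.89, 8.86, 7.39 and 7.76. The groups did not overlap for any of the 3 genes, and array 4 was the lowest neo-liver array for Sds and Cyp2f2. Hal fell by 2.83 ± 0.29 (7.12-fold, adjusted p = 5.59e-06), Sds by 3.65 ± 0.55 (12.5-fold), Cyp2f2 by 3.46 ± 0.37 (11-fold), Hsd17b6, for a steroid dehydrogenase, by 3.67 ± 0.53 and Etnppl, for ethanolamine-phosphate phospho-lyase, by 3.01 ± 0.47. Of 19 tested members 16 fell and none rose, while 31.5% of all genes fell, and the median of the list was -1.60. The medians of the pairs were -1.78, -1.87, -1.28 and -1.26. After quantile normalization 13 fell and 2 rose with a median of -1.21, and after subtraction of the kidney share 17 fell with a median of -1.23.

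Fewer genes of the central zone were called, in both directions. Glul, for the glutamine synthetase of the hepatocytes that line the central vein, stood at 5.37, 5.15, 4.09 and 5.47 in neo-liver and 4.78, 4.55, 5.03 and 5.38 in host liver, and differed by 0.08 ± 0.31 (adjusted p = 0.838). The arrays overlapped, and host kidney read 5.09 on this probe. Axin2, a feedback target of Wnt signalling that kidney read at only -4.63, stood at -1.96, -2.16, -1.31 and -1.25 in neo-liver and -3.12, -3.40, -2.81 and -1.81 in host liver and rose by 1.11 ± 0.34 (adjusted p = 0.0159). Quantile normalization brought it to 0.93 (adjusted p = 0.0535). Sp5, another Wnt target, rose by 1.49 ± 0.30, with 0.49 in host kidney, and Lgr5, for a receptor that amplifies Wnt signals, differed by 0.37 ± 0.33 (adjusted p = 0.369). Slc13a3, for a dicarboxylate transporter that kidney tubule also makes, rose by 2.48 ± 0.42 and no longer passed after subtraction (adjusted p = 0.0537). Cyp2e1, for the P450 enzyme of ethanol metabolism, read 8.44, 8.53, 8.30 and 8.48 against 9.21, 9.51, 9.29 and 9.25 and fell by 0.88 ± 0.28, but stood at 0.03 after quantile normalization. Rgn, for regucalcin, fell by 1.08 ± 0.31, Slc1a2, for a glutamate transporter, by 1.15 ± 0.29 and Nr1i3, for the xenobiotic receptor CAR, by 1.25 ± 0.34. After subtraction none of these falls passed limma's test (adjusted p = 0.157, 0.111 and 0.0673). After quantile normalization Slc1a2 passed (adjusted p = 0.0290), and Rgn and Nr1i3 did not (adjusted p = 0.284 and 0.0526). Of 24 tested members 3 rose and 4 fell, with a median of -0.36. With the replicate block 10 fell, as also without host liver 1, and after quantile normalization 1, with a median of 0.025. After subtraction 1 fell and 2 rose, with a median of -0.09.

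**Figure D3:**
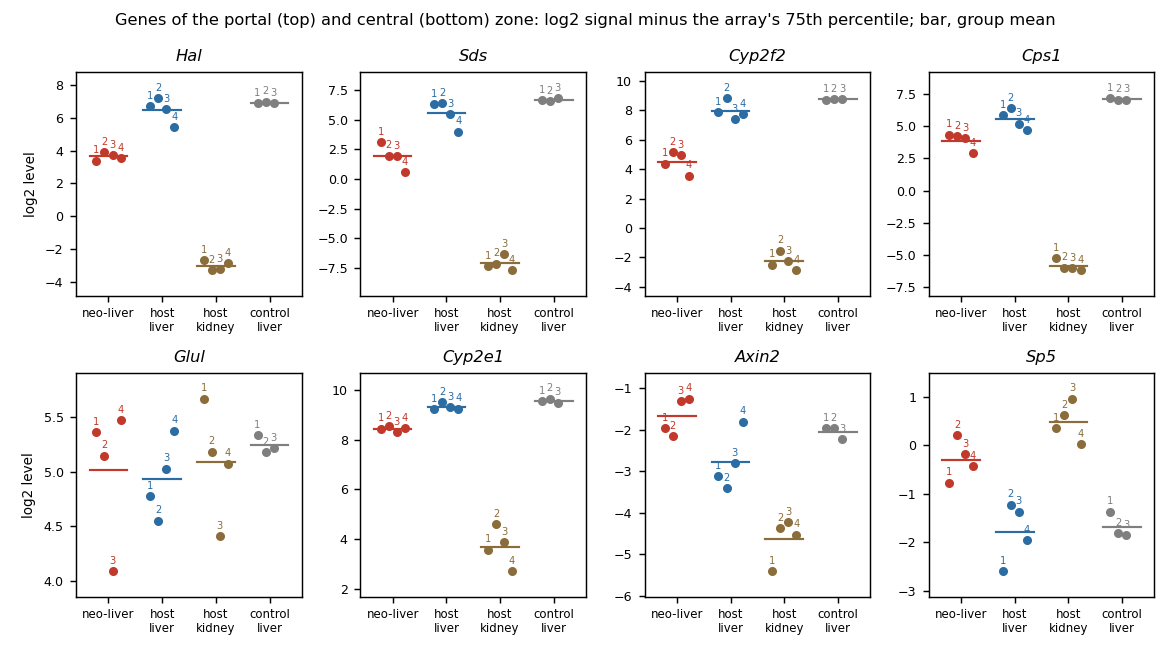
Log2 levels on every array for 4 genes of the portal zone (Hal, Sds, Cyp2f2, Cps1) and 4 of the central zone or of Wnt signalling (Glul, Cyp2e1, Axin2, Sp5), numbered as in the titles, with group means as bars. The portal genes are lower on all 4 neo-liver arrays than on any host liver array, Glul overlaps, and Sp5 is higher on all 4 neo-liver arrays.

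Nitrogen metabolism fell with the portal zone. Cps1, for the first enzyme of the urea cycle, stood at 4.35, 4.25, 4.06 and 2.89 in neo-liver and 5.87, 6.39, 5.20 and 4.70 in host liver and fell by 1.65 ± 0.37 (3.14-fold, adjusted p = 0.00272). Arg1, for arginase, fell by 1.60 ± 0.23, Nags, whose product activates the cycle, by 1.42 ± 0.13, and Gls2, for liver glutaminase, by 2.49 ± 0.59. For Cps1, Arg1 and Nags no neo-liver array reached the lowest host liver array, and for Gls2 neo-liver 1 (4.66) lay above host liver 4 (4.50). Of 12 tested urea cycle and nitrogen genes 11 fell and none rose (median -1.33), 6 of them after quantile normalization and 9 after subtraction. Cps1, Arg1, Gls2, Ass1 and Asl are on the periportal list as well, so the 2 lists in part count the same genes. Of 26 amino acid catabolism genes, some of which are also on the periportal list, 22 fell and none rose (median -1.34). They included Uroc1, the step after Hal in histidine breakdown, which fell by 1.81 ± 0.30, and Tat, for tyrosine aminotransferase, which fell by 1.78 ± 0.43. After quantile normalization 14 of them fell, and after subtraction 17.

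Most genes of secreted plasma proteins fell by small amounts, and few of those calls held after quantile normalization or subtraction of the kidney share. With each array centred on its median, all 4921 genes called lower in the main fit were called lower again. Alb, for albumin, stood at 10.52, 10.01, 10.00 and 9.92 in neo-liver and 11.21, 10.94, 10.65 and 10.81 in host liver. All 4 neo-liver arrays lay below the lowest host liver array, and the difference was -0.79 ± 0.21 (adjusted p = 0.00678). The difference was 0.00 after quantile normalization and -0.31 after subtraction (adjusted p = 0.233). Quantile normalization gives equal ranks equal values, so it cannot show a difference in a gene of the same rank on every array. Serpina1a, a mouse α1-antitrypsin gene, fell by 0.76 ± 0.22 and stood at -0.28 after subtraction, Fetub, for fetuin B, fell by 1.37 ± 0.23, and Apoa1, for the apolipoprotein that builds HDL, differed by -0.87 ± 0.43 (adjusted p = 0.107). Of 29 tested plasma protein genes 24 fell and none rose (median -0.90), but after quantile normalization only 1 fell (median -0.08) and after subtraction 8. Of 15 apolipoprotein and lipid carrier genes 10 fell (median -0.96), among them Lcat and Apom, each by 1.27, and 4 after quantile normalization and 6 after subtraction. Of 30 coagulation and complement genes 23 fell (median -0.98), 10 after quantile normalization and 12 after subtraction. F7, for coagulation factor VII, fell by 1.69 ± 0.11 (adjusted p = 7.70e-08), with 2.98, 2.74, 2.67 and 3.0 against 4.69, 4.62, 4.33 and 4.52, and by 1.21 after subtraction. Masp2, for a protease of the lectin pathway, fell by 1.51 ± 0.31. Of 23 acute phase genes 12 fell (median -1.08), led by Orm3, an orosomucoid gene, at -2.86 ± 0.76, and Saa4 at -2.0 ± 0.50. That count was 6 without host liver 1, 7 without neo-liver 2 or neo-liver 4, 3 after quantile normalization or subtraction, and 20 with the replicate block.

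All 20 tested hepatocyte transcription factors were above background on every neo-liver array. Hnf4a, for the nuclear receptor that maintains the hepatocyte programme and that tubule cells also use, stood at 7.43, 7.13, 7.37 and 7.28 in neo-liver against 8.10, 7.58, 7.92 and 7.84, and fell by 0.56 ± 0.12. Its difference was 0.08 after quantile normalization (adjusted p = 0.639). Nr1i2, for the xenobiotic receptor PXR, fell by 1.27 ± 0.25 and Rxra, its dimer partner, by 1.31 ± 0.31. Both still fell after quantile normalization and after subtraction, by 0.88 and 1.00 in the latter. Of 20 tested factors 12 fell and none rose (median -1.06), 6 after quantile normalization and 4 after subtraction.

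Several P450 genes varied widely from number to number, and in the same manner in both tissues. Cyp2b10, a target of CAR, stood at 4.64, 8.61, 9.24 and 5.01 in neo-liver 1 to 4 and at 6.77, 9.96, 9.94 and 6.22 in host liver 1 to 4. Cyp2c55 stood at -3.27, 3.36, 4.51 and -2.87 against -2.79, 4.82, 6.09 and -1.14. For both genes numbers 2 and 3 were high and numbers 1 and 4 low in both tissues. Cyp1a1, a target of the aryl hydrocarbon receptor, read 4.92 in neo-liver 4 and 5.12 in host liver 4 and between -4.40 and -2.15 on the other 6 arrays, and 1 neo-liver array did not read it above background. Cyp4a14, a target of PPARα, was highest in number 3 in both tissues, at 7.67 and 8.89. None of these 4 genes differed between the tissues over the spread of the arrays, at -1.35 ± 1.09 for Cyp2b10, -1.31 ± 2.01 for Cyp2c55, -0.77 ± 2.14 for Cyp1a1 and -0.81 ± 0.92 for Cyp4a14, and host kidney read 6.89 for the last. Of 38 tested P450 genes 14 fell and none rose (median -1.15), with Cyp2c37 at -1.55 ± 0.47. With the number as a replicate block 36 fell, among them Cyp2b10 (adjusted p = 0.00876), Cyp2c55 (adjusted p = 0.00843) and Cyp4a14 (adjusted p = 0.0182). After quantile normalization 5 fell, and after subtraction 7.

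**Figure D4:**
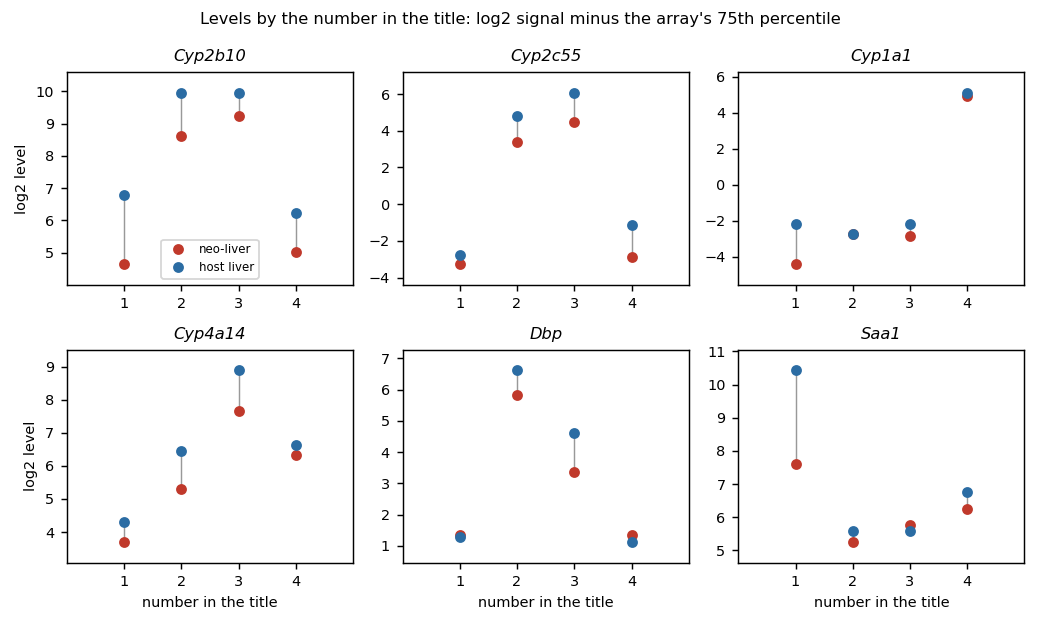
Log2 levels of 6 genes in neo-liver (red) and host liver (blue), joined by the number in the title. Cyp2b10 and Cyp2c55 are high in numbers 2 and 3 of both tissues, Cyp1a1 in number 4, Cyp4a14 is highest in number 3 and Dbp in number 2 of both, and Saa1 is highest in number 1 of both, at 7.60 and 10.43.

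Saa1, for serum amyloid A, and the clock output gene Dbp varied with the number in the same manner. Saa1 stood at 7.60, 5.26, 5.77 and 6.25 in neo-liver and 10.43, 5.58, 5.60 and 6.75 in host liver, and differed by -0.87 ± 0.89 (adjusted p = 0.441). Dbp, whose transcript swings over the day, stood at 1.34, 5.82, 3.37 and 1.36 against 1.29, 6.61, 4.60 and 1.12, and Nr1d1, for the clock repressor REV-ERBα, at -4.49, 1.23, 0.48 and -2.43 against -3.46, 2.20, 0.98 and -2.87. Numbers 2 and 3 were high and numbers 1 and 4 low in both tissues, and the labels used here give no hour of sampling. Of 20 tested clock genes 2 fell, among them Bhlhe40 by 1.04 ± 0.24, and none rose, and 5 fell with the replicate block.

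Conjugation enzymes were mostly lower. Sult5a1, a sulfotransferase gene, stood at -0.06, -0.12, -0.90 and -0.74 in neo-liver and at 3.71, 3.64, 3.33 and 3.34 in host liver. The difference was -3.96 ± 0.27 (15.5-fold, adjusted p = 9.68e-08), and -3.65 after subtraction. Of 38 tested members 22 fell and 1, Gstm5, rose (1.04 ± 0.22), and the fallen were 5 after quantile normalization, 7 after subtraction, 11 without neo-liver 1, host liver 2 or host liver 3 and 13 without neo-liver 4. The largest fall of all genes was that of Mmd2, a gene of the progestin and adipoQ receptor family, with -3.49, -3.12, -4.05 and -4.06 in neo-liver and 1.51, 1.72, 0.83 and -1.55 in host liver, a difference of -4.31 ± 0.55. Lipn, a lipase gene, fell by 3.15 ± 0.68, with 1 neo-liver and 3 host liver arrays above background. Of 20 NRF2 targets 7 fell and none rose, with Akr1c13 at -1.18 ± 0.30 and Gclc, for the first enzyme of glutathione synthesis, at -0.78 ± 0.23, and 0 fell after quantile normalization and 4 after subtraction. That share of falls was near that of all genes.

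Bile acid genes split between liver and kidney members. Slc27a5, whose enzyme activates bile acids before conjugation, stood at 7.67, 7.36, 7.35 and 6.75 in neo-liver and 8.98, 9.00, 8.46 and 8.32 in host liver and fell by 1.41 ± 0.23 (2.65-fold). Abcb11, for the bile salt export pump, fell by 1.03 ± 0.31 and Abcg8, for a sterol exporter, by 1.37 ± 0.39, whereas Cyp7a1, which sets the rate of bile acid production, differed by 0.23 ± 0.63 (adjusted p = 0.783), with neo-liver 4 lowest at 0.88. Slc51a, for a subunit of the basolateral bile acid exporter that kidney tubule makes, was at least 32.2-fold higher. It stood at 2.19 in host kidney, 2.53 in neo-liver 2 and 0.11 to 1.06 in the other neo-liver arrays. Of 28 tested members 16 fell and 2 rose (median -0.87), and 5 fell and 3 rose after quantile normalization and 8 fell and 1 rose after subtraction.

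Respiratory chain genes fell by small amounts, and other groups of energy and lipid metabolism stood nearer to all genes, of which 31.5% fell. Of 27 respiratory chain genes 17 fell (median -0.49), led by Cyc1, for cytochrome c1, at -0.76 ± 0.20, and after quantile normalization none fell and 2 rose, with a median of 0.0045, while after subtraction 25 fell. Of 32 genes of fatty acid oxidation and PPARα targets 13 fell and 1 rose (median -0.78), with Acaa1b, a peroxisomal thiolase gene, at -1.47 ± 0.33 and Acot3 at -1.39 ± 0.28. That count was 8 without neo-liver 1, 27 with the replicate block, 3 after quantile normalization and 8 after subtraction. Of 16 genes of gluconeogenesis and glucose sensing 7 fell and 1 rose, Ppargc1a by 1.00 ± 0.16, with 3.76 in host kidney. That gene stood at -2.48 after subtraction, which set neo-liver 4 to its floor of -5.19, so the size of this value is not a measured level. The fallen of that list were 2 after quantile normalization, 6 after subtraction and 11 with the replicate block. Of 24 cholesterol synthesis genes 5 fell, with Ebp at -1.19 ± 0.27, a smaller share than among all genes. They were 2 after quantile normalization, when Ebp no longer passed (adjusted p = 0.0770), 2 after subtraction and 15 with the replicate block. Of 21 lipogenesis genes 5 fell and 2 rose, also a smaller share of falls than among all genes. After quantile normalization 1 fell, after subtraction 2 fell and none rose, and with the replicate block 10 fell. Without neo-liver 1 the fallen were 9 cholesterol and 3 lipogenesis genes, without host liver 4 there were 8 cholesterol genes and without host liver 2 there were 3 lipogenesis genes.

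Growth hormone signalling to the liver sets circulating IGF1 and the sex-biased genes. Igf1 stood at 6.30, 5.40, 5.39 and 5.77 in neo-liver and 7.46, 7.02, 6.33 and 6.91 in host liver and fell by 1.22 ± 0.25 (2.32-fold, adjusted p = 0.00162). Igfals, for the carrier subunit of IGF1 in blood, fell by 1.51 ± 0.26, Ghr, for the growth hormone receptor, by 1.27 ± 0.18 and Igfbp2 by 1.67 ± 0.54. The arrays of the groups did not overlap for these 4 genes. The difference of Igf1 was -0.67 after quantile normalization (adjusted p = 0.0572), and that of Igfbp2 no longer passed without host liver 3, neo-liver 2 or neo-liver 4 (adjusted p = 0.0616, 0.0673 and 0.0529). Igf1r, whose transcript is low in hepatocytes, rose by 3.11 ± 0.18, with 3.50 in host kidney. After subtraction it stood at 0.05, which rests in part on neo-liver 4. Subtraction set that array to its floor of -5.19, against a host liver mean of -1.27. Of 17 tested members 8 fell and 2 rose, and 5 fell without neo-liver 2, 2 after quantile normalization and 6 after subtraction, when none rose. Of 22 female-biased genes 9 fell and 2 rose (median -1.04), and 18 fell with the replicate block, 2 after quantile normalization and 4 after subtraction. They included A1bg at -2.44 ± 0.86, which did not pass without host liver 1, 2 or 4 or neo-liver 3 (adjusted p = 0.0715, 0.0788, 0.0626 and 0.0595), and Fmo2 rising by 1.61 ± 0.30 with 3.55 in host kidney. Of 18 male-biased genes 6 fell and 3 rose, and 3 fell without host liver 2, host liver 4 or neo-liver 4 or after quantile normalization. After subtraction 2 fell and none rose, and with the replicate block 12 fell. The major urinary protein gene Mup5 stood at 5.23, 6.83, 4.36 and 4.83 in neo-liver against 9.91, 9.96, 8.02 and 8.85 and fell by 3.87 ± 0.70. The related Mup3, whose sequence is close to other copies of its family, fell by 2.81 ± 1.04. That call ended when host liver 1, 2 or 4 or neo-liver 1, 3 or 4 was left out (adjusted p from 0.0533 to 0.0881). The SE of Mup3 also takes in the host kidney arrays, which read -7.51, -2.17, -8.07 and -7.87. Its groups did not overlap, and it passed with the replicate block (adjusted p = 0.00223). Cyp4a12a rose by 3.11 ± 0.96, with 1.06 in host kidney and with host liver 2, at -0.17, within the neo-liver range.

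Genes of the p53 response and senescence were called in shares near those of all genes. Mdm2, for the ligase that degrades p53 and itself a p53 target, stood at 2.95, 2.92, 3.13 and 3.03 in neo-liver and 3.87, 3.99, 4.06 and 3.74 in host liver and fell by 0.91 ± 0.11 (1.87-fold, adjusted p = 2.48e-05). It also fell after quantile normalization, by 0.58, and after subtraction, by 1.40. Cdkn2a, the locus of p16 and ARF, stood at -1.52, -1.93, -1.43 and -1.27 against 0.26, -0.78, -0.14 and -0.90, and at -6.01 in control liver. It fell by 1.15 ± 0.39, a call that ended without host liver 1, host liver 3 or neo-liver 2 (adjusted p = 0.0747, 0.0635 and 0.0699). Cdkn1a, for p21, differed by -0.69 ± 0.71 (adjusted p = 0.443), and its 2 kept probes disagreed in sign. Of 28 tested members 9 fell and 4 rose (median -0.48), against 31.5% and 17.1% of all genes, and 4 fell after quantile normalization and likewise after subtraction. The number that rose was 1 without neo-liver 4 and 2 without neo-liver 1, neo-liver 3, host liver 1 or host liver 3. Of 20 genes of endoplasmic reticulum and amino acid stress 5 fell and 3 rose, and 2 fell without neo-liver 2, host liver 1 or host liver 4, 1 after quantile normalization, 3 after subtraction and 11 with the replicate block. The rising included Phgdh and Psat1, for consecutive enzymes of serine synthesis that kidney also makes, by 2.41 ± 0.27 and 2.96 ± 0.65, the latter with 3 host liver arrays above background, and Phgdh still rose by 1.64 after subtraction (adjusted p = 0.00275).

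Only 1 proliferation gene was called. Mki67, for a protein of dividing cells, stood at 0.97, 1.23, 0.77 and -0.75 in neo-liver and -0.18, 1.89, 0.31 and 1.03 in host liver and differed by -0.21 ± 0.45 (adjusted p = 0.727). Of 30 tested proliferation genes 1, Tyms, rose (0.76 ± 0.22) and none fell. The medians of the pairs ran from 1.12 in number 1 to -1.28 in number 2. Plk1, for a mitotic kinase, stood at -1.86, 2.90, 1.03 and -0.59 in host liver, Cdc20, for an activator of anaphase, at -1.45, 4.65, 2.25 and -0.17, and Ccnb1, for cyclin B1, at -4.69, 2.48, 0.45 and -2.14. Host liver 2 was the highest and host liver 1 the lowest array of its group for these 3 genes. In neo-liver 1 to 4 Plk1 stood at -0.24, 0.92, 1.09 and -1.42.

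Each fetal and bile duct gene that rose was also higher in host kidney than in host liver. Gpc3, for the fetal liver proteoglycan glypican 3, stood at 1.67, 1.03, 0.84 and 1.44 in neo-liver and -3.73, -3.19, -2.65 and -3.0 in host liver, with 1.40 in host kidney. It rose by 4.39 ± 0.25 (20.9-fold, adjusted p = 1.78e-08) and by 4.26 after subtraction. Neo-liver 1 and neo-liver 4 read above the mean of host kidney itself. Afp, for alpha-fetoprotein, differed by 0.88 ± 0.47 (adjusted p = 0.140), with -1.5, -3.13, -2.84 and -1.55 against -3.61, -2.92, -4.02 and -1.97, and passed the test without host liver 4 (adjusted p = 0.0346). Of 16 tested fetal genes 6 rose and 2 fell (median 1.03). After subtraction 2 rose and 2 fell (median -0.45). Of 20 bile duct genes, many of which tubule cells express, 9 rose and 3 fell (median 0.45), 1 of them falling without neo-liver 2 or host liver 1, and after subtraction none rose and 7 fell. Krt7, a keratin gene of ducts, rose by 4.14 ± 0.29 from a level above background on 1 host liver array. Spp1, for osteopontin, rose by 3.34 ± 0.27, and Epcam was at least 5.80-fold higher. After subtraction Krt7, Spp1 and Epcam stood at -0.57, -0.61 and -0.72. Subtraction set Epcam to the floor on every neo-liver array, Krt7 on neo-liver 2, 3 and 4 and Spp1 on neo-liver 3. Krt19, a duct keratin that kidney read at -2.19, stood at -2.01, -2.83, -1.99 and -1.93 against -1.55, -1.27, -2.07 and -1.47 and differed by -0.60 ± 0.31 (adjusted p = 0.124). Sox9, for a factor of duct cells, fell by 1.03 ± 0.36, a call that ended without host liver 1, host liver 3 or neo-liver 2 (adjusted p = 0.0673, 0.0621 and 0.0513).

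Sinusoidal endothelial genes moved in both directions. Stab2, for a scavenger receptor of these cells, stood at 3.37, 3.17, 3.26 and 2.63 in neo-liver and 5.07, 4.76, 4.45 and 4.25 in host liver and fell by 1.53 ± 0.20 (2.88-fold, adjusted p = 4.79e-05). Clec4g, for a lectin, fell by 1.31 ± 0.22 and Dnase1l3, for a nuclease, by 1.24 ± 0.16. Lyve1, for the hyaluronan receptor of sinusoids and lymph vessels, went the other way. It stood at 0.23, -0.52, 0.17 and -0.67 in neo-liver against -1.83, -2.14, -0.69 and -2.36, with -5.97 in host kidney, and rose by 1.56 ± 0.43 (2.94-fold, adjusted p = 0.00985). These 4 genes did not overlap between the groups and passed in the same direction after quantile normalization and after subtraction. Of 24 tested members 10 fell and 3 rose (median -0.60), with 7 and 3 after quantile normalization and 6 and 2 after subtraction. Of 25 genes of general and capillary endothelium 6 rose and 2 fell (median -0.07), the latter being 1 without neo-liver 2, neo-liver 3, host liver 1 or host liver 4 4 without host liver 2 and 5 with the replicate block, and the median was 0.057 after quantile normalization. Aplnr, for the apelin receptor, rose by 2.23 ± 0.22, with 1 host liver array above background and -1.51 in host kidney, Cldn5, for a tight junction protein, fell by 1.5 ± 0.21, and Pecam1, for the pan-endothelial CD31, differed by -0.27 ± 0.13 (adjusted p = 0.0846).

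Kupffer cell genes fell in a share near that of all genes, and recruited macrophage and monocyte genes rose in 9 of 19 cases. Clec4f, a lectin gene of Kupffer cells that kidney did not read above background, stood at 4.96, 4.44, 3.34 and 4.70 in neo-liver and 5.94, 5.08, 4.95 and 5.75 in host liver. The difference was -1.07 ± 0.46 (adjusted p = 0.0689), and -0.59 after subtraction (adjusted p = 0.327). Timd4, for a receptor for dying cells, fell by 0.87 ± 0.29, a call that ended without host liver 1, host liver 4 or neo-liver 2 (adjusted p = 0.0591, 0.0656 and 0.0645), and Nr1h3, for LXRα, fell by 0.89 ± 0.10. All 20 tested Kupffer cell genes had negative differences, from -1.70 to -0.37, against a median of -0.21 for all genes. Of them 7 fell and none rose (median -0.65), while 31.5% of all genes fell. The count was 2 to 4 without neo-liver 2 or 3 or host liver 1 or 4, 2 after quantile normalization or subtraction and 18 with the replicate block. Of the 19 recruited macrophage and monocyte genes 9 rose and none fell (median 0.77), while 17.1% of all genes rose. Trem2, a lipid receptor gene of macrophages in injured tissue, stood at 1.61, 0.17, 0.86 and 2.44 against -0.57, -0.86, -0.87 and 0.57, with -1.97 in host kidney, and rose by 1.70 ± 0.44. Neo-liver 2 lay below host liver 4, and neo-liver was higher in all 4 pairs. Cx3cr1, for the fractalkine receptor, rose by 2.38 ± 0.30, with 0.47 in host kidney. After subtraction 5 of the list rose.

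**Figure D5:**
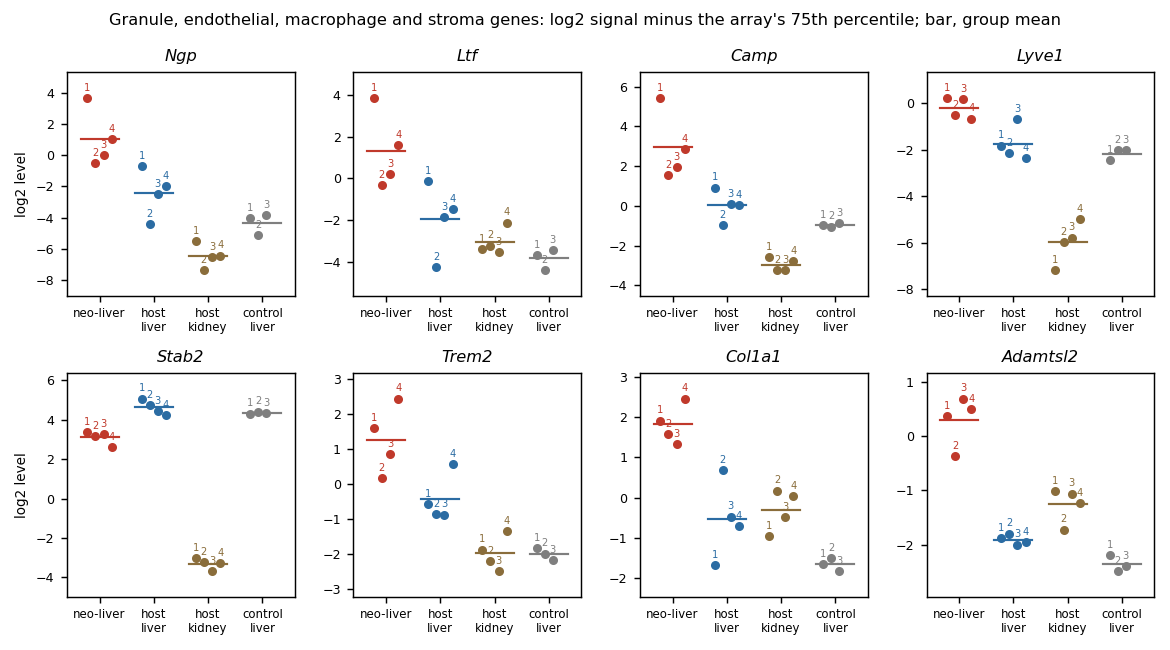
Log2 levels on every array of 8 genes: the granule genes Ngp, Ltf and Camp, the sinusoidal endothelial genes Lyve1 and Stab2, the macrophage gene Trem2 and the stroma genes Col1a1 and Adamtsl2, numbered as in the titles, with group means as bars. Ngp, Camp, Lyve1, Col1a1 and Adamtsl2 are higher on all 4 neo-liver arrays than on any host liver array, Stab2 is lower, and Ltf and Trem2 overlap.

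Lymphocyte and antigen presentation genes showed few calls, and interferon genes fell in a share near the 31.5% of all genes. Of 22 tested T and NK cell genes 2 rose and 1 fell, the latter being Gzma, for granzyme A, with -1.02, -1.49, -0.93 and -0.89 in neo-liver against 0.68, -0.05, 0.34 and 0.04 and a difference of -1.33 ± 0.26, and with the replicate block 4 rose and 4 fell. Of 15 B and plasma cell genes 2 rose and 2 fell. Of 10 MHC class II genes 1 rose, Ciita, the master regulator of the class, at least 2.56-fold, and 4 rose with the replicate block. Of 25 interferon response genes 7 fell and 1 rose, Ifit2 by 0.79 ± 0.16, and 4 fell without neo-liver 2, host liver 1 or host liver 4 and 3 after quantile normalization or subtraction. Of 20 chemokine genes 7 rose and 3 fell, 4 rising after subtraction and 5 falling with the replicate block. Cx3cl1, for the ligand of CX3CR1, rose by 3.79 ± 0.19 (13.9-fold), with 2.72, 1.93, 1.90 and 1.91 against -1.55, -1.51, -1.88 and -1.78 and 3.06 in host kidney, and by 2.63 after subtraction. Cxcl14 rose by 2.64 ± 0.33 and by 2.18 after subtraction. Ccl8 rose by 2.64 ± 0.76, with 1 host liver array above background, and did not pass after subtraction (adjusted p = 0.104) or with the replicate block (adjusted p = 0.0736).

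Most collagen genes and many matrix genes rose. Col1a1, for the main chain of type I collagen, stood at 1.91, 1.58, 1.34 and 2.46 in neo-liver and -1.67, 0.69, -0.47 and -0.71 in host liver, with -0.31 in host kidney. All neo-liver arrays lay above host liver 2, the highest of its group, and the difference was 2.36 ± 0.41 (5.14-fold, adjusted p = 4.82e-04). It stood at 2.74 after subtraction. Pdgfrb, for the growth factor receptor of stellate cells and pericytes, stood at 1.89, 1.21, 1.58 and 1.53 against -0.01, 0.08, 0.11 and -0.04 and rose by 1.52 ± 0.17. Adamtsl2, for a microfibril-associated matrix protein, rose by 2.20 ± 0.21 and Loxl1, for a cross-linking enzyme of elastic fibres, by 2.84 ± 0.50, and the differences of these 4 genes were larger after subtraction. Of 19 tested collagen genes 15 rose and 1, Col18a1, fell (-0.76 ± 0.13), with a median of 1.32, and 11 rose after subtraction. Only 2 of the 15 were no higher in host kidney than in host liver. Col4a3, for a chain of the glomerular basement membrane, rose by 4.36 ± 0.45, from 1 host liver array above background, and stood at 0.64 after subtraction (adjusted p = 0.405), and Col8a1 was at least 2.67-fold higher. Of 31 matrix and myofibroblast genes 17 rose and 1, Fn1, fell (-0.97 ± 0.24), with a median of 0.75. Without neo-liver 4 the counts were 11 and 2, and with the replicate block 13 and 3. Of the 17 that rose in the main fit, 5 were no higher in host kidney than in host liver. Timp3, for an inhibitor of matrix proteases that kidney read at 6.43, rose by 3.23 ± 0.14 and by 1.74 after subtraction, and Thbs1 rose by 2.20 ± 0.33 and stood at 0.25 after subtraction (adjusted p = 0.818).

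The stellate cell list itself moved both ways. Lrat, whose enzyme stores vitamin A in quiescent stellate cells and which kidney read at -2.94, stood at -0.06, 0.73, 0.12 and 0.38 in neo-liver and -0.10, 0.37, 0.35 and 0.00 in host liver and differed by 0.14 ± 0.23 (adjusted p = 0.646). Colec10, a collectin gene of stellate cells that was not above background on any host kidney array, fell by 2.01 ± 0.27, with 2.33, 1.61, 1.13 and 0.72 against 3.73, 3.33, 3.54 and 3.21. Of 27 tested members 8 rose and 7 fell (median 0.01). The lower count was 3 without neo-liver 3, 4 without host liver 3 or 4 or after quantile normalization, and 1 after subtraction, when 10 rose. Acta2, for the smooth muscle actin of myofibroblasts and vessel walls, stood at 2.32, 1.05, 0.29 and 2.04 against -0.33, 3.66, -0.73 and 0.36. Host liver 2 exceeded every neo-liver array, and the difference of 0.69 ± 0.77 (adjusted p = 0.482) passed the test without that array (adjusted p = 0.0112).

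Adipocyte genes marked some neo-liver samples and not others. Cfd, for the adipokine adipsin, stood at 3.35, 3.07, -2.30 and 5.32 in neo-liver and -5.81, -1.35, -5.17 and -3.77 in host liver, with 0.87 in host kidney, and rose by 6.39 ± 1.60 (adjusted p = 0.00545). Adipoq, for adiponectin, stood at -0.68, -0.51, -4.79 and 2.30 against -4.51, -3.60, -5.38 and -4.67. Neo-liver 4 was the highest and neo-liver 3 the lowest of its group for both, and the difference of 3.62 ± 1.47 in Adipoq (adjusted p = 0.0564) passed the test without neo-liver 3 (adjusted p = 0.0101). Of 6 tested adipocyte genes 3 rose, and 1 after subtraction, and their summed signal was 23.0 to 95.9 in neo-liver and 9.34 to 25.5 in host liver. The part of adipocytes in the differences above was not tested. Of 4 adrenal cortex genes and 2 muscle genes none was called in limma's test, of 7 erythroid genes 1 rose, and of 19 immediate early genes 1 rose and 3 fell. With the replicate block 6 of the 7 erythroid genes fell, with medians of -1.11, -0.47, -1.54 and -0.57 in the 4 pairs, and 2 immediate early genes rose and 5 fell.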

How the data were processed

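RNA of 15 tissue samples was measured on 1-colour Agilent arrays read with Agilent Feature Extraction 10.10.1.1, per the file headers. The deposited scanner files hold a processed signal intensity per spot and the log2 values that were also deposited for the series matched the log2 of this signal minus the 75th percentile of the array within 0.01 for 99.8% of values. Here that log2 level was computed from the scanner files, without 3671 control spots, from 59305 spots of 55681 probes; 0 spots were saturated. Of these, 34992 probes were well above background on every array of at least 1 group and were kept. Of the kept probes 20391 had an accession that matched a RefSeq transcript with a gene symbol, and 14601 did not. The brightest kept probe stood for a gene, which gave 15622 genes, 4004 of them with more than 1 kept probe; the kept probes of 877 genes disagreed in sign. Positions are not given for genes, since no genome was used.

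Groups were compared in R 4.3.3 with limma 3.58.1 (statmod 1.5.0), fitting the means of all 4 groups to 15 arrays, with Benjamini-Hochberg adjustment over all genes. A probe below background on all arrays of a group has a lower bound for its fold, computed against the lowest signal that read above background and written as at least N-fold. For the kidney share, 60 listed kidney genes were used whose host kidney signal was 8 or more times that of control liver. On the linear scale, the excess of an array over control liver was divided by the excess of host kidney for each gene, and the median was taken in percent. It was subtracted on the linear scale in an alternative, with a floor at the lowest signal that read above background on each array. Further alternatives were the deposited log2 values, median centring, quantile normalization, normexp with an offset of 50, filters, the mean of probes, the 8 arrays alone, slide as a random block, a replicate block and leaving out each array. The fit was tested on simulated data. The number of arrays limits the precision, and limma's p-values set a difference against the spread within all 4 groups, host kidney included.

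Same-numbered neo-liver and host liver arrays correlated at 0.41 to 0.58 in their deviations from the group means over 15622 genes, and different numbers at -0.40 to 0.04. All 4 arrays of either tissue correlated best with their own number, so the numbers were taken to pair the samples, from the data and not from the labels. This pairing entered the exact test, the differences by pair and the replicate block, and not the main fit. Named genes were the 10 largest rises, falls and rises not marked by kidney among called genes with no overlap between groups, lead genes, up to 4 called members of each list in its main direction and up to 2 in the other, and uncalled members whose role was needed; not all of these are described, and 1 is not reported here. The 49 lists have 1112 entries, of which 2 were not matched to a symbol and 4 were renamed. Members and lists were chosen with earlier results of these data known. In the 16 lists of which limma called no member higher, 1 member was higher at an unadjusted p under 0.05, and in the 10 lists of which it called none lower, 1 member was lower.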

Additional observations from a re-analysis of the deposited data

Results flagged for a closer look

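Some log2 levels lay apart from the other 3 of their group, with a gap to the nearest array above Dixon's 95% critical value for 4 samples as a share of the whole range. Among 284 groups of 4 arrays checked there were 20 such cases, while chance gives about 1 in 20 groups. The arrays that lay low were Cib3 at -5.56 in host liver 1 (nearest -3.70), Mpo at -3.97 in host liver 2 (nearest -1.08), Cebpe at -6.09 in host liver 2 (nearest -3.65) and Krt19 at -2.83 in neo-liver 2 (nearest -2.01). Further arrays that lay low were Gls2 at 2.08 in neo-liver 4 (nearest 4.25), Slc13a3 at 5.28 in neo-liver 3 (nearest 6.12), Rgn at 7.36 in host liver 3 (nearest 8.53) and Apom at 5.03 in neo-liver 1 (nearest 5.87). Others that lay low were Apom at 6.34 in host liver 1 (nearest 7.12), Cx3cr1 at 0.29 in neo-liver 2 (nearest 1.31) and Col4a3 at -1.24 in neo-liver 3 (nearest -0.66). The arrays that lay high were Stk33 at -1.05 in neo-liver 1 (nearest -1.88), Alb at 10.52 in neo-liver 1 (nearest 10.01), Saa4 at 7.04 in host liver 1 (nearest 5.54) and Nr1i2 at 1.99 in neo-liver 3 (nearest 1.32). Further arrays that lay high were Cyp1a1 at 5.12 in host liver 4 (nearest -2.15), Igf1r at 2.44 in neo-liver 2 (nearest 1.70), Dnase1l3 at -0.49 in neo-liver 1 (nearest -0.99) and Cx3cl1 at 2.72 in neo-liver 1 (nearest 1.93). A further array that lay high was Loxl1 at 0.37 in neo-liver 4 (nearest -0.34). The differences of Mpo, Cebpe, Cib3 and the other called genes among these kept their call and direction without any 1 of the 8 arrays.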

How the results depend on the processing

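The counts of called genes, with no limit on the fold, moved by more than 1.5 times under 4 alternatives. Quantile normalization gave 2598 lower genes and normexp 2635, while requiring signal above background on all 8 arrays gave 1500 higher genes, over 12630 tested, and subtraction of the kidney share 1594. Of differences of at least 2-fold, those lower moved beyond this to 349 after quantile normalization, 963 with median centring, 140 with normexp and 1233 with no filter on dim probes, and those higher to 977 with normexp, 691 with signal required on all 8 arrays and 1132 after subtraction. Without any 1 array the higher genes ranged from 2419 to 2625 and the lower from 4252 to 4931. With the number in the title as a replicate block 2930 genes were higher and 6253 lower, and as a random block, an alternative chosen after seeing the data, 3155 and 6158. With the replicate block 8 of the 141 genes with values in the text gained a call and 2 lost it, and it changed no other call of these genes. Those not given above are Apoa1 (adjusted p = 0.00690), Clec4f (0.00631), Pecam1 (0.0391) and Adipoq (0.0351), which gained it, and Sox9 (0.0510), which lost it.

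Of the 141 genes with values in the text 117 were called, and 111 of these kept their call and direction without any 1 of the 8 arrays. Quantile normalization ended 18 of these calls with no change of sign, subtraction 27, normexp 11 and the fit to 8 arrays 10. Among them the sign turned for Hnf4a, at 0.077 after quantile normalization and 0.11 after normexp, for Cyp2e1, at 0.033 and 0.014, and for Serpina1a, at 0.073 after normexp. After subtraction it turned for Umod (-0.70), Pax8 (-0.12), Ppargc1a (-2.48), Epcam (-0.72), Spp1 (-0.61) and Krt7 (-0.57). Subtraction set Umod and Epcam to the floor on every neo-liver array and Krt7 on neo-liver 2, 3 and 4. It did so for Spp1 on neo-liver 3 and for Ppargc1a on neo-liver 4, so the differences of these genes after subtraction are not measured levels. Of all 229 genes that the rule for named genes covers, 219 were called, of which the replicate block ended 8 calls, quantile normalization 59 and subtraction 70, and the sign turned for 0, 3 and 15. The cause of these changes was not tested. Neo-liver lay on another slide than host liver, and 66 called genes were below background on all 8 arrays, so their differences are not measured levels.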
